A study of Homo sapiens with 9 samples.

Results

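INHBA and GLI3 are neighbouring genes on human chromosome 7, and the newly made DNA that carries them was spread differently over the sorted parts of S phase in HCT116 than in RPE1 cells. The 2 genes were chosen by position from the switched stretches of the genome, on the same contrast that is described here, so their difference is a description and carries no test. In hg19, INHBA was taken as chr7:41725001-41743000 and GLI3 as chr7:42001001-42277000, within a domain from 40.5 to 43.5 Mb. That domain held 60 of the 56728 windows of 50 kb kept over the autosomes and chromosome X. All 60 windows of the domain were kept.

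The study compared HCT116, a human colorectal carcinoma line, with RPE1, a retinal pigment epithelial line immortalised with telomerase. Both lines grew untreated and asynchronously, were pulsed with EdU, a thymidine analogue that marks newly made DNA, and were separated by flow into early, mid and late S phase cells. The marked DNA of each of these 3 fractions was pulled down and sequenced. HCT116 was measured in 1 set of 3 libraries, and RPE1 in 2 sets of 3 libraries.

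Each set was deposited as 3 count columns with no names. They are called libraries A, B and C here by their position, and a letter means a position, not a fraction. Whether INHBA and GLI3 replicate later or earlier in HCT116 cannot be told from unnamed columns, so the difference is given by library. The columns did match between tables. Over 53706 autosomal windows of 50 kb, each HCT116 library correlated best with the RPE1 library at the same position, with r of 0.838, 0.437 and 0.765 for A, B and C against RPE1 set 1. Against RPE1 set 2, r was 0.833, 0.466 and 0.766. These windows share libraries and neighbours, and the correlations are descriptions. Library B was the least alike of the 3. The labels give replicate number 2 to the mid and late HCT116 samples and none to the early one, and whether they came from 1 sort is not given. Nothing says that the RPE1 sets came from separate cultures, and their spread may be technical.

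Mammalian chromosomes copy their DNA in large domains that fire in a set order through S phase. Transcribed, open chromatin tends to replicate early and silent, lamina-bound chromatin late, and a share of these domains differs between cell types. INHBA encodes the inhibin beta A subunit, which pairs with itself to form activin A, a secreted ligand of the TGF-beta family. GLI3 encodes a zinc-finger transcription factor of the Hedgehog pathway that is processed to a repressor when the pathway is off and is known for its part in limb patterning. Nascent DNA counts say nothing of the expression of either gene.

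INHBA lay in 1 window of 50 kb, from 41.70 to 41.75 Mb. In HCT116 this window held 68 reads in library A, 206 in B and 163 in C. In RPE1 it held 203, 122 and 36 reads in set 1 and 404, 391 and 122 in set 2. Library C held far more of the HCT116 reads of INHBA than of the RPE1 reads.

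The libraries were sequenced to different depths, from 6170299 to 22930078 reads, so each was scaled to the same total, and a share is the part of a set's summed scaled reads that fell in 1 library. By share, INHBA had 15.9% of its HCT116 signal in A, 33.7% in B and 50.3% in C. RPE1 set 1 had 39.8% in A, 54.0% in B and 6.21% in C, and RPE1 set 2 had 35.4%, 49.4% and 15.2%. C led in HCT116 and B led in both RPE1 sets, with A second and C last.

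The C share of INHBA was 39.7 percentage points higher in HCT116, at 50.3% against 10.7% ± 6.35 in RPE1 (SD, n = 2). The A share was lower in HCT116, at 15.9% against 37.6% ± 3.10 in RPE1, and the B share was lower too, at 33.7% against 51.7% ± 3.25. The gap between the RPE1 sets was 4.38 points for A, 4.60 points for B and 8.98 points for C. Each difference exceeded that gap, in a gene chosen on this contrast, so this is no separate support. HCT116 had no second set, so its own spread is unknown.

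Counting error was small beside these differences. Of the scaled reads of INHBA in A and C together, C held 76.0% in HCT116. The exact Clopper-Pearson 95% interval of the counts, carried through the scaling, was 70.3 to 81.0%. Library C held 13.5% (9.60 to 18.2) in RPE1 set 1 and 29.99% (25.8 to 34.5) in set 2. The HCT116 interval lay clear of both, in a gene chosen on this contrast, and the RPE1 intervals did not overlap each other. Such intervals cover counting error only, and the scaling was taken as fixed.

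Within the 18 kb of the INHBA gene itself, the 1 kb bins held 26, 65 and 62 reads in HCT116. They held 68, 35 and 11 reads in RPE1 set 1 and 130, 133 and 42 in set 2. The C share in the gene was 53.4% in HCT116, 6.17% in RPE1 set 1 and 15.6% in RPE1 set 2, close to the values of the whole window.

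GLI3, a much longer gene, touched 6 windows from 42.00 to 42.30 Mb. Together they held 467 reads in A, 911 in B and 1270 in C in HCT116. They held 1167, 759 and 221 reads in RPE1 set 1 and 2400, 2040 and 665 in set 2. The largest count was in C in HCT116 and in A in both RPE1 sets.

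After scaling, GLI3 had 16.8% in A, 22.9% in B and 60.3% in C in HCT116. RPE1 set 1 had 38.0% in A, 55.7% in B and 6.32% in C, and RPE1 set 2 had 38.2%, 46.8% and 15.0%. The C share was 49.6 points higher in HCT116, at 60.3% against 10.7% ± 6.15 in RPE1 (SD, n = 2). The A share differed by -21.3 points and the B share by -28.3 points, HCT116 minus RPE1. The gap between the RPE1 sets was 0.240 points for A, 8.94 for B and 8.70 for C.

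By 50 kb windows, the C shares of the 2 genes were nearly alike in RPE1, and in HCT116 GLI3 had more C than INHBA. The C shares of GLI3 and INHBA were 60.3% and 50.3% in HCT116, 6.32% and 6.21% in RPE1 set 1, and 15.0% and 15.2% in set 2. The gap in HCT116 was mostly one of B, which held 22.9% of GLI3 and 33.7% of INHBA, while A held 16.8% and 15.9%. Of the scaled reads in A and C, C held 78.2% (76.3 to 80.0) of GLI3 and 76.0% (70.3 to 81.0) of INHBA in HCT116. Those intervals overlapped, so A against C did not separate the genes at this depth. The INHBA values rest on 1 window of 50 kb. In 20 kb windows of HCT116, the C share of INHBA was 53.6 to 55.1%, within the 51.9 to 65.5% of GLI3.

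**Figure D1:**
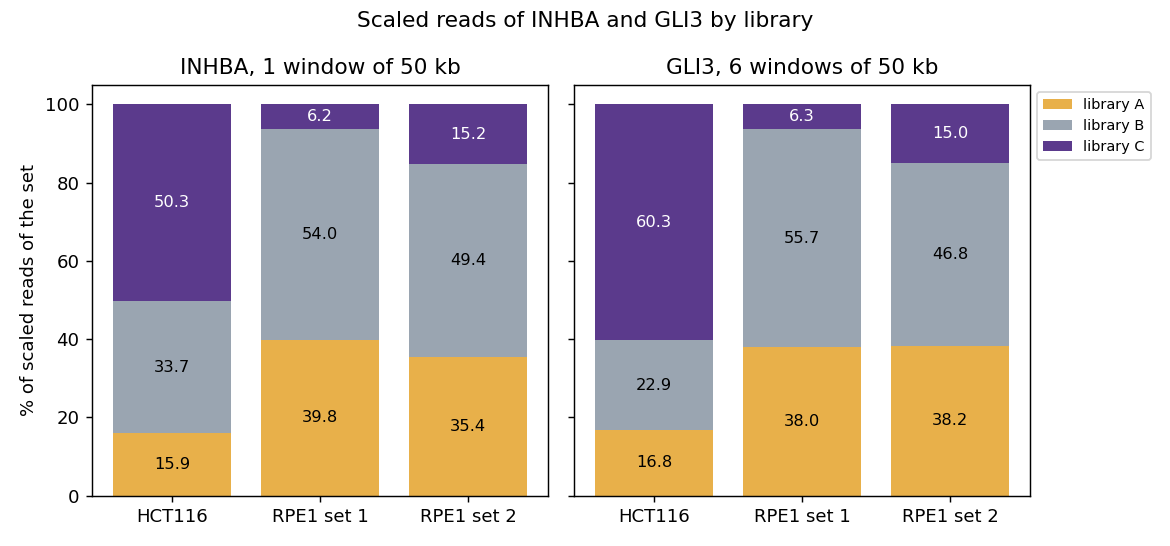
Share of scaled reads (%) in libraries A, B and C for the windows of INHBA (left panel) and GLI3 (right panel), with 1 bar for each set and no error bars. Library C holds 50.3% of INHBA and 60.3% of GLI3 in HCT116 and between 6.21 and 15.2% in the RPE1 sets.

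The difference held along the whole of GLI3. Over its 6 windows the C share ranged from 56.1 to 63.1% in HCT116, between 4.09 and 10.1% in RPE1 set 1 and between 12.3 and 18.8% in set 2. The lowest HCT116 window was above the highest RPE1 window, in a gene chosen on this contrast. Within the 276 kb of the gene, the C share of the 1 kb bins was 60.6% in HCT116, 6.57% in RPE1 set 1 and 15.2% in set 2, from 2426, 1930 and 4683 reads in all.

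In percentage points, the A share varied more along GLI3 in RPE1 than in HCT116. At 42.00-42.05 Mb, A held 14.7% in HCT116, against 44.8% in RPE1 set 1 and 48.6% in set 2. At 42.15-42.20 Mb it held 16.2% in HCT116, against 32.3 and 33.9% in the RPE1 sets. At 42.25-42.30 Mb it held 16.7% in HCT116, against 38.2 and 38.7% in RPE1. Both RPE1 sets thus dipped in A in the middle of the gene, within ranges of 32.3 to 44.8% in set 1 and 33.9 to 48.6% in set 2. HCT116 stayed between 14.5 and 20.9% over all 6 windows, with its highest value at 42.10-42.15 Mb. These ranges are in points, and HCT116 varied around a lower share.

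The A share differed more in the 258 kb between the genes than at either gene. Over the 5 windows from 41.75 to 42.00 Mb, A held 16.5% in HCT116, against 50.9% in RPE1 set 1 and 50.4% in set 2. C held 56.6% in HCT116, against 3.59 and 14.1% in RPE1. Library A led over 41.80-42.00 Mb in RPE1 set 1 and over 41.85-42.05 Mb in set 2, and B led on either side. The peak of A in RPE1 therefore stood between INHBA and GLI3 and reached the first window of GLI3 in set 2. HCT116 had no such peak, and C led there in an unbroken stretch from 41.25 to 42.85 Mb, or 32 windows.

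**Figure D2:**
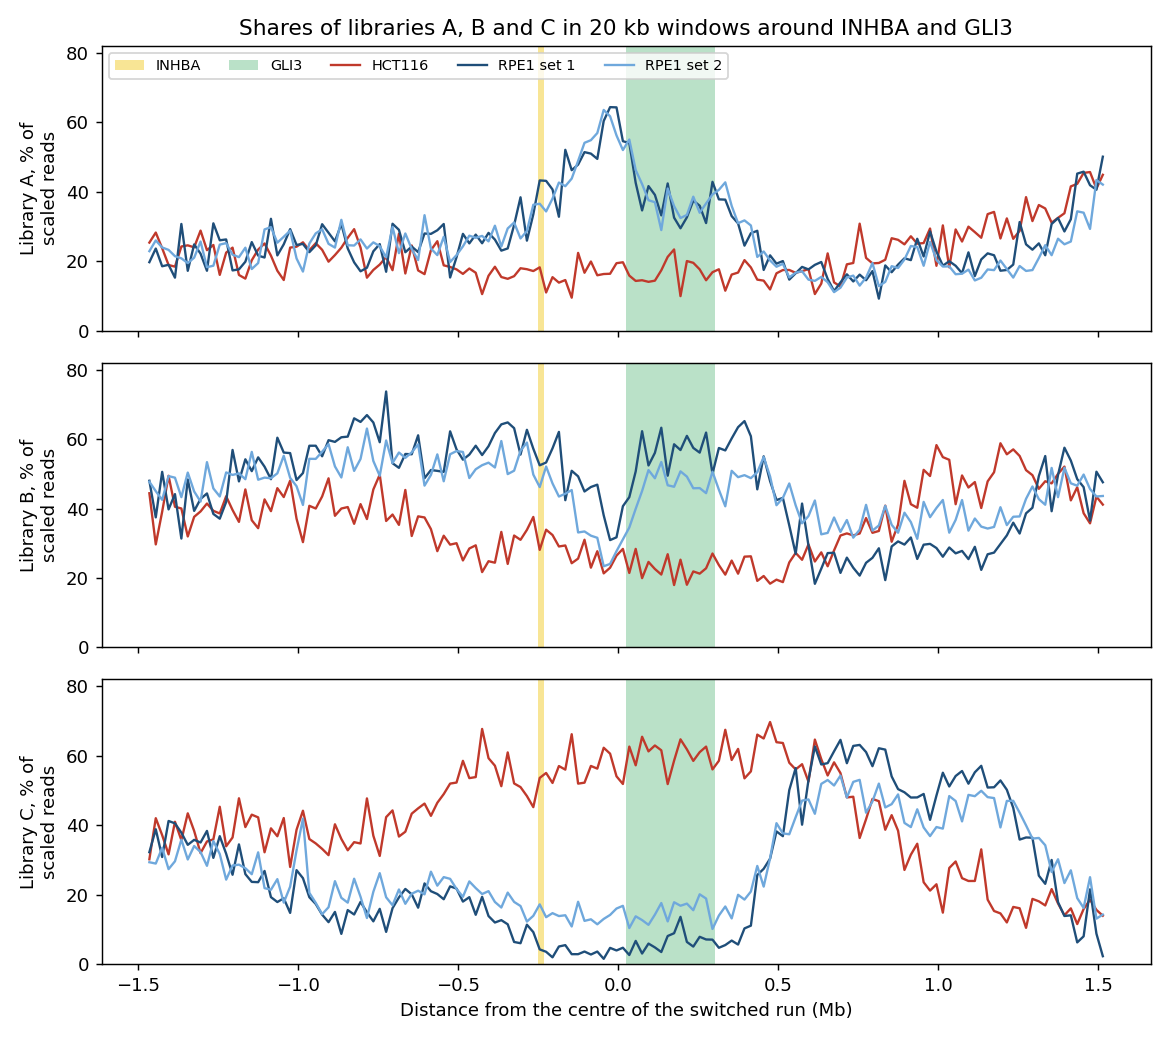
Share of scaled reads (%) in libraries A (top), B (middle) and C (bottom) in 150 windows of 20 kb, against distance in Mb from the centre of the switched run, with 1 line for each set and shading for INHBA and GLI3. The RPE1 lines of A rise to a peak between the genes where HCT116 stays low, and the C line of HCT116 lies above both RPE1 lines over INHBA and GLI3.

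A single value per window was used to compare the sets and to find where the difference starts and ends. This leading axis is the first principal component of the 3 log2 scaled values of a set, centred within each window. It was taken for each set on its own, divided by its SD over the autosomal windows of that set and centred on their mean. Within a set, a higher value means more C and less A. Across sets, similar shares can have unequal axis values. At 42.60-42.65 Mb, C held 57.1% in HCT116, with 1.36 on the axis, and 58.2% in RPE1 set 1, with 1.00. INHBA had 1.19 in HCT116, against -0.88 in RPE1 set 1 and -0.70 in set 2, a difference of 1.98 from the RPE1 mean. GLI3 averaged 1.46 in HCT116, against -0.86 and -0.81 in the RPE1 sets, a difference of 2.30. The stretch between them differed by 2.56.

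Set against the rest of the genome, the INHBA window of HCT116 was above 78.5% of autosomal windows of its own set. The same window was above 30.3% of windows in RPE1 set 1 and 33.9% in set 2. The GLI3 mean was above 89.8% of windows in HCT116, 30.6% in RPE1 set 1 and 31.0% in set 2. In RPE1 both genes lay in the lower part of the range without being at its end.

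Windows were called above where HCT116 exceeded each RPE1 set by 1 SD or more, and below where it fell short of each by as much. Over the autosomes, 3.44% of 53706 windows were called above and 7.24% below. In the domain 21 of 60 windows were above and 5 of 60 below. All 21 formed 1 run, chr7:41450001-42500000, which held both genes. The genes were chosen on this contrast, so nothing is read from the count beyond the position of the run. In 20 kb windows, 53 of 150 windows of the domain were above, where the autosomal share was 3.54%, and these included both windows of INHBA and all 14 windows of GLI3.

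The run spanned 1.05 Mb. It began 275 kb to the left of INHBA and ended 223 kb to the right of GLI3, by hg19 coordinate, so neither gene lay at an edge. Over the run the shares of A, B and C were 16.4, 25.3 and 58.4% in HCT116. They were 36.3, 53.7 and 10.0% in RPE1 set 1 and 35.8, 46.3 and 17.9% in set 2. In each of the 21 windows the C share of HCT116 was above both RPE1 sets, and its A and B shares were below both. The windows were called on an axis that rises with C and falls with A, so this is no separate support. The mean leading axis was 1.41 in HCT116, against -0.68 and -0.60 in RPE1.

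The left edge of the run was a slope. HCT116 had 0.92 at 41.40-41.45 Mb, against 0.01 and -0.00089 in the RPE1 sets, just under the threshold with a smaller difference of 0.91. At 41.45-41.50 Mb it had 1.32, against 0.03 and 0.12, just inside with 1.201. To the left of the run, from 40.5 to 41.45 Mb, HCT116 still averaged higher, at 0.60 against 0.11 and 0.06 in RPE1. There C held 38.9% in HCT116, against 24.2 and 25.02% in RPE1, while A held 21.95% against 23.7 and 24.2%. On average over this stretch HCT116 thus had more C and less B, with A shares within a few points of RPE1. Its outer windows, from 40.50 to 40.70 Mb, differed little, by -0.09 to 0.18 on the leading axis (HCT116 minus RPE1 mean).

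The right edge was a step in RPE1, not in HCT116. Both RPE1 sets climbed past GLI3, from 42.30-42.35 to 42.50-42.55 Mb, by 1.62 and 1.55 on the leading axis. Their C share at 42.50-42.55 Mb was 46.4% in set 1 and 41.3% in set 2, and at 42.30-42.35 Mb it was 6.26 and 16.1%. HCT116 kept high C shares through that climb, 62.5% at 42.30-42.35 Mb and 56.4% at 42.50-42.55 Mb, with its highest value of the domain, 67.7%, at 42.40-42.45 Mb. The smaller difference was 1.02 in the last window of the run and 0.49 in the next, so the run ended where RPE1 came within 1 SD of HCT116.

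Farther right the order of the lines turned over on the leading axis. HCT116 and the RPE1 mean differed by 0.07 at 42.65-42.70 Mb and by -0.41 at 42.70-42.75 Mb. HCT116 had its steepest fall from 42.75-42.80 to 42.95-43.00 Mb, by 1.26, where its C share ended at 19.8%. The RPE1 sets had theirs from 43.20-43.25 to 43.40-43.45 Mb, by 1.201 and 1.37. The C-led stretch thus covered INHBA and GLI3 and ended at 42.85 Mb in HCT116, while in RPE1 it began past GLI3, at 42.50 Mb in set 1 and 42.55 Mb in set 2, and ended at 43.25 Mb, with 1 window led by B within it in set 2.

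A shorter run of opposite sign lay at chr7:43050001-43300000, 550 kb from the first run. Its 5 windows had 30.9% in A, 50.0% in B and 19.1% in C in HCT116. They had 21.9, 31.9 and 46.2% in RPE1 set 1 and 17.4, 38.5 and 44.0% in set 2. The leading axis was -0.56 in HCT116, against 0.70 and 0.82 in RPE1, which is opposite in sign to both genes.

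**Figure D3:**
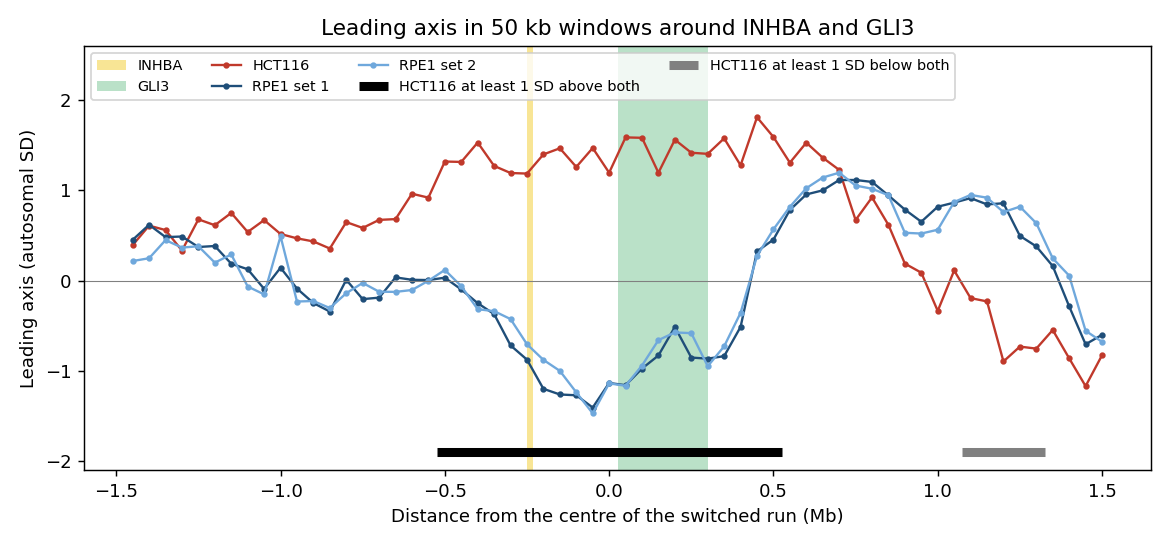
Leading axis (autosomal SD) in the 60 windows of 50 kb of the domain, against distance in Mb from the centre of the run that holds INHBA and GLI3, with 1 line for each set. HCT116 lies at 1.19 and 1.46 on INHBA and GLI3 where both RPE1 sets are below 0, and the bars at the bottom mark the run of 21 windows above and the run of 5 windows below.

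In RefSeq's gene order for GRCh38.p14, the protein-coding genes around the pair are MPLKIP and SUGCT before INHBA, and C7orf25, PSMA2, MRPL32 and HECW1 after GLI3. INHBA and GLI3 are next to each other in that order. PSMA2 encodes a proteasome subunit and MRPL32 a protein of the mitochondrial ribosome. These neighbours were not placed on hg19 windows here, so no share is given for them.

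The RPE1 sets were close to each other over the domain. Their leading axes differed by at most 0.37 in any of the 60 windows, with a median of 0.0919, against a median of 0.112 over the autosomes. In every window of the run HCT116 differed from both RPE1 sets by more than the largest of these gaps. The threshold of 1 SD that defined the run fixed this in advance. Over the run the RPE1 sets were less alike in B and C shares than in A. In GLI3 set 2 had more C than set 1 in each of the 6 windows.

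Summed reads were higher in HCT116 than in both RPE1 sets at GLI3 but not at INHBA, and their part in the shares was not tested. Relative to the chromosome 7 median of the same set, the scaled reads of GLI3 were 1.09 in HCT116, 0.745 in RPE1 set 1 and 0.953 in set 2. INHBA had 1.01 in HCT116, 0.737 in RPE1 set 1 and 1.02 in set 2. RPE1 set 1 was low at both genes, and set 2 was near HCT116 at INHBA. Compared only with autosomal windows of similar leading axis (1 of 50 quantile classes), GLI3 had 1.05 in HCT116, against 0.817 and 0.884 in RPE1. INHBA had 0.960 in HCT116, against 0.842 and 0.960. Shares are taken within a set and cancel a copy number common to its libraries. They average over all sorted cells and both alleles, so a shift in every cell and a larger shift in some cells cannot be told apart.

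Among runs of at least 5 differing windows with HCT116 above, of which the autosomes held 131, the run with INHBA and GLI3 was the 5th longest. It was also the 5th by mean difference, 2.05 against a median of 1.52 over the 131 runs. By the HCT116 level alone it was 38th. Chromosome 7 held 10 of the runs.

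The 5 runs most like it were found by the distance between the 9 mean shares, in percentage points. They were chr3:28900001-29600000 at a distance of 5.78, chr3:63800001-64600000 at 6.35, chr8:31900001-32550000 at 6.38, chr9:118200001-119050000 at 6.47 and chr5:168700001-169650000 at 6.62. Over these runs, C held 57.5, 56.8, 58.6, 53.9 and 56.7% in HCT116. In RPE1 set 1 it held 11.8, 8.78, 13.0, 7.89 and 9.14%. Like the run with INHBA and GLI3, all 5 were led by C in HCT116 and by B in both RPE1 sets, which are values the distance itself used. Each was shorter, with 13 to 19 windows.

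**Figure D4:**
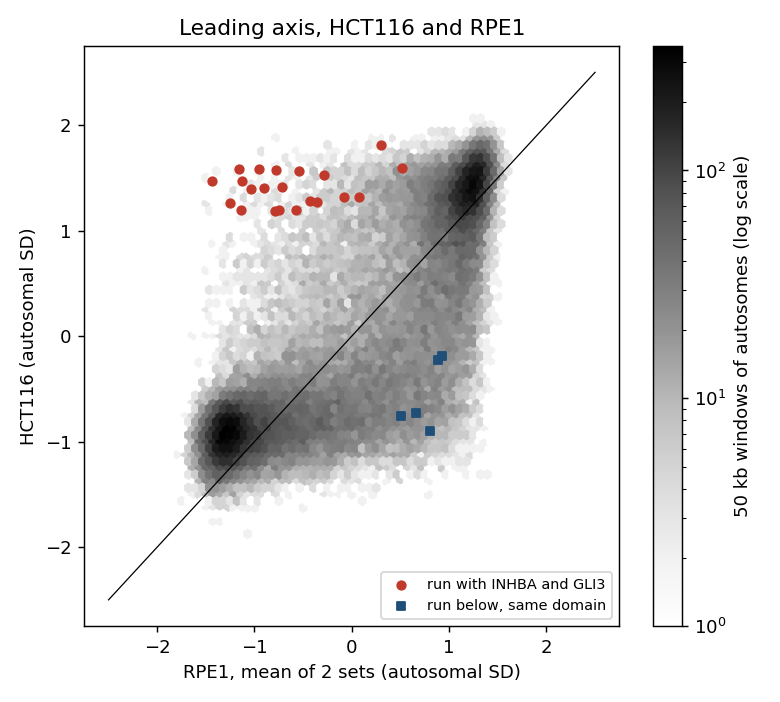
Leading axis of HCT116 against the mean of the 2 RPE1 sets (both in autosomal SD) for 53706 autosomal windows of 50 kb, with shading for the number of windows on a log scale and the line of equal values. The 21 windows of the run with INHBA and GLI3 (circles) lie between 1.19 and 1.81 in HCT116, above the line, and the 5 windows of the opposite run (squares) lie below it.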

How the data were processed

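Per the labels, the authors pulled down EdU-marked DNA with streptavidin and sequenced single reads of 50 bases. The authors deposited unscaled read counts per bin of about 1 kb on hg19. Per the submitters' processing notes, Bowtie2, SAMtools 1.2 and bedtools 2.25 were used. Mapping and duplicate settings are not given in the sources used here. Reads that map to several places and copy number change a bin's count.

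Bins were summed to 50 kb windows. Those kept had reads in 25 bins or more, 50 or more RPE1 reads and 30 or more reads per set. Libraries were scaled to equal totals over kept windows. A gene's share pools all windows that touch it. The leading axis used log2 values with a pseudocount of 1 added to scaled reads. In RPE1 set 1 library C was given a positive weight, and the other sets were turned to correlate above 0 with it. A run needed 5 adjacent windows that differed from both RPE1 sets by 1 SD or more, in 1 direction. The procedure was tested on simulated data with planted runs, in which both RPE1 sets had the same profile and counting error was the only noise. That test does not cover the spread between sets. With 2 RPE1 sets against 1 HCT116 set, no p-value was computed. The members and lists were chosen with earlier results of these data known. Gene lists needed an hg19 annotation and were not analysed here. The rule for named genes took INHBA and GLI3, and the 5 runs nearest in mean shares. Python 3.11.15, NumPy 2.4.6, pandas 2.3.3 and SciPy 1.17.1 were used.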

Additional observations from a re-analysis of the deposited data

How the results depend on the processing

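For 9 results (the C and A shares and the leading axis of INHBA and of GLI3, HCT116 minus RPE1, the edges of the run, and the windows above in the domain), 15 other settings gave 110 values. None of these reversed, 92 stayed within the spread of the RPE1 sets, 1 window or 1.5 times the count, and 18 went beyond. Thresholds, ranks and the ratio of C to A leave shares as they are and were not run on them, and a threshold leaves the axis as it is. In every setting 1 run held both genes. In 20 kb windows the A share of INHBA differed by -24.8 points, its axis by 2.251 and that of GLI3 by 2.2501, and 53 windows were above. In 100 kb windows the axis of INHBA differed by 2.22 and 11 windows were above. These counts move with the window size itself. With libraries thinned to 6170299 reads, GLI3 differed by -22.3 points in A and 2.24 on the axis. By normal ranks, the axis differed by 1.29 at INHBA and 1.91 at GLI3. By the log2 ratio of C to A it differed by 2.24 at GLI3. With a threshold of 0.5 SD the run began at 41.00 Mb and 32 windows were above, and with 1.5 SD it ran from 41.55 to 42.40 Mb. With the grid moved by 25 kb, chosen after seeing the data like the gene bodies, the A share differed by -26.1 points at INHBA and -23.0 at GLI3, and the axis of INHBA by 2.32. The causes were not tested. Leaving out 1 RPE1 set in turn gave C differences of 35.2 and 44.1 points at INHBA and 45.3 and 54.0 at GLI3, and the run kept both edges. No paired analysis was possible because HCT116 has 1 set, and the only replicate number it could share with RPE1 is 2. What that number marks is not given. The INHBA window held 437 reads in HCT116, 361 in RPE1 set 1 and 917 in set 2.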

Other observations

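The run below at 43.05 to 43.30 Mb stood within 1 Mb of the run that holds INHBA and GLI3. Of the 131 autosomal runs with HCT116 above, 13 (9.92%) had a run below within 1 Mb, a distance chosen after the data were seen. The run on chromosome 5 was the only one of the 5 most alike runs that had one.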
